A study of Mus musculus with 12 samples.

Results

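The complement system of the mouse spinal cord was followed here through 9 genes of its components, receptors and regulators, chosen by name: C1qa, C1qb, C1qc, C3, C4b, C3ar1, C5ar1, Cfp and Serping1. A gene was measured where the array holds a probe annotated to it alone, and the probe of highest mean signal over the 12 arrays was used. This gave 7 of the 9 genes, out of 18194 genes with such a probe. C3 had no probe in the annotation used and the probe for C4b was shared with C4a, so C3 and C4b were not analysed here. All 7 measured genes had a mean MAS 5.0 signal, a linear brightness value, above 50 in at least 1 group and were tested among 10511 genes that met the same cutoff.

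Spinal cord RNA came from 4 groups of female C57BL/6 mice (C57BL/6J by the study's methods): aged injured (15 to 18 months old), young injured (2 to 3 months old), aged intact and young intact, with 3 arrays for each. Injured cords had received a contusion of 70 kdyn at the Th9 level after laminectomy and were collected 9 days later. Intact cords came from naive mice, all mice were perfused with heparinized saline, and the segment at Th9 was taken. The labels name no transgene or mutant allele in any group, and the 3 arrays of a group stand for 3 mice. A whole piece of cord holds many cell types, and in such bulk RNA fewer cells of a type and less RNA per cell cannot be told apart.

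Complement is a cascade of serum and tissue proteins that tags debris, microbes and synapses for removal. C1q, built of chains from C1qa, C1qb and C1qc, starts the classical pathway on antibody or on damaged surfaces, and in the brain and spinal cord microglia are its main source. Properdin, the product of Cfp, stabilizes the enzyme that amplifies C3 cleavage, C3ar1 and C5ar1 encode the receptors for the small fragments C3a and C5a on myeloid cells, and Serping1 encodes the C1 inhibitor, which blocks the proteases C1r and C1s.

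The 3 C1q genes lie side by side on the minus strand of mouse chromosome 4 (RefSeq, GRCm38.p6), C1qb at chr4:136880126-136886200, C1qc at chr4:136889801-136892936 and C1qa at chr4:136895916-136898844. The other measured genes are apart, C3ar1 at chr6:122847140-122856157, C5ar1 at chr7:16246743-16259540, Cfp at chrX:20925454-20931555 and Serping1 at chr2:84765360-84775444. Promoter windows of 300 bases, 250 before to 50 after the RefSeq start, were held for 6 of the 9 genes (C1qb, C1qc, C3, C3ar1, C5ar1 and Cfp). Those of C1qb (chr4:136886151-136886450) and C1qc (chr4:136892865-136893164) are shown because both genes were higher with age in intact cord. That of C3ar1 (chr6:122856108-122856407) is shown because C3ar1 passed the test for age in injured cord. All 3 are on the minus strand and are written along the gene, with capitals for matches on either strand to GAGGAA or AGGAAG, letters found in sites of PU.1, a transcription factor of myeloid cells.
C1qb: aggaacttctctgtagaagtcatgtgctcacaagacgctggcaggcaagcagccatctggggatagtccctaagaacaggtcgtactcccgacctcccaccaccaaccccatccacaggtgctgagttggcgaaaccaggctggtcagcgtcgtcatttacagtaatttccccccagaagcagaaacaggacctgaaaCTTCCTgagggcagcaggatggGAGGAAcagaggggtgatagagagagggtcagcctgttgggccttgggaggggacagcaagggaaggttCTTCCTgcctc
C1qc: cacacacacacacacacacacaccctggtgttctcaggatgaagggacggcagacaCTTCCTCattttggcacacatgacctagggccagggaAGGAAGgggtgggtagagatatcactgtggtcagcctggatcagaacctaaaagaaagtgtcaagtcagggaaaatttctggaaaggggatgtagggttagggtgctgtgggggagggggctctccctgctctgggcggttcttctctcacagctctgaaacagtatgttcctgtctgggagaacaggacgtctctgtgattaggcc
C3ar1: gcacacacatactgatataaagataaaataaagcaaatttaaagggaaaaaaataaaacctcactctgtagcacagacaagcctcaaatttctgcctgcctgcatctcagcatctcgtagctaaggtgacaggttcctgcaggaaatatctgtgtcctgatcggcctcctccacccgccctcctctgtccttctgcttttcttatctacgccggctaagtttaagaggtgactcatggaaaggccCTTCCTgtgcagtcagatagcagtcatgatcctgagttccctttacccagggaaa
The motif letters overlap each other where they read GAGGAAG, and AGGAAG was added after the promoters had been read. C1qb and C1qc held both motifs, C3ar1 and C5ar1 held AGGAAG alone, Cfp held GAGGAA alone and C3 held neither. GAGGAA occurred in 28.3% and AGGAAG in 35.4% of 32851 mouse promoter windows of the same length, and 46% held at least 1 of them.

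The median signal over all probes lay between 20.4 and 23.9 on the 12 arrays. Markers of astrocytes (8 genes), oligodendrocytes (7 measured) and neurons (8 genes) averaged above 50 in every group, and all 4 measured markers of B and T cells were below 50 in every group. Aged injured replicate 1 stood apart: its Euclidean distance in log2 signal to replicates 2 and 3 over all tested genes was 80.8 and 64.1, against 30.9 between these and a mean of 31.4 among young injured arrays. The summed signal of its neuronal markers was 1600, against 6889 and 10398 on the other aged injured arrays and 7294 to 11210 on young injured arrays. Age differences in injured cord of C3ar1, C5ar1, Cfp and Serping1 are also given without it.

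**Figure D1:**
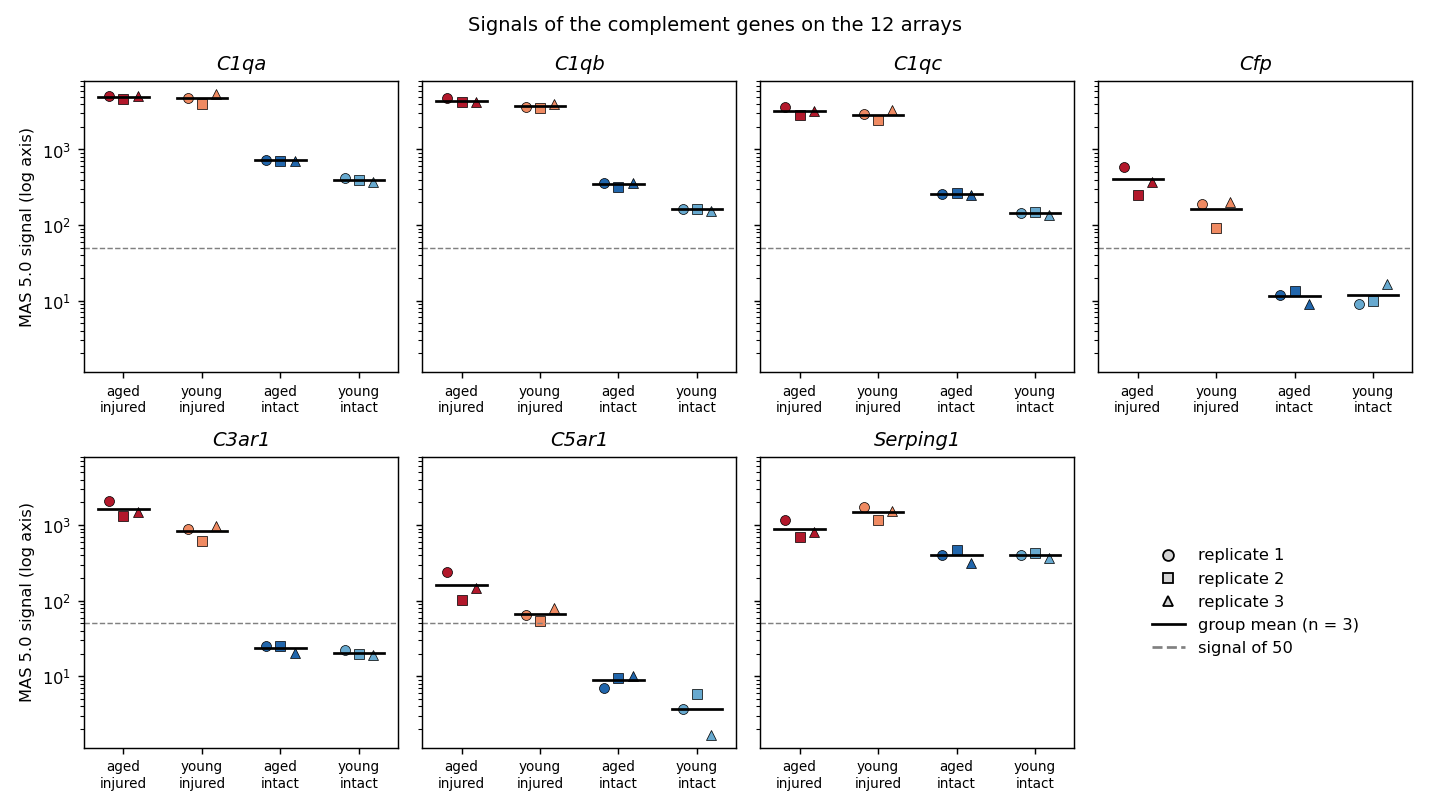
MAS 5.0 signal (log axis) of the 7 measured complement genes on each of the 12 arrays, with 3 arrays per group; symbols mark replicates 1, 2 and 3, black bars the group means and the dashed line the signal of 50. The C1q genes are above 50 on every array and higher in aged than in young intact cords, while C3ar1, C5ar1 and Cfp are below 50 in both intact groups, and Serping1 is the 1 gene with its highest mean in young injured cords.

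All 7 genes were higher after injury at both ages. With age, the 3 C1q genes were higher in intact cord, and in injured cord C3ar1 was higher and Serping1 lower by the same test (limma, adjusted p under 0.05 over all genes tested). In aged injured against young injured cords the test called 1 gene higher and 1 lower of 7, beside 4.41% of all tested genes called higher and 4.58% called lower. In aged intact against young intact cords it called 3 of 7 higher, where 0.542% of all tested genes were called higher. All 7 were called higher in young injured against young intact cords (33.9% of tested genes called higher), and all 7 in aged injured against aged intact cords (35.6% called higher). The median log2 fold change of the 7 genes was 0.24 for age in injured cord (-0.04 over all tested genes) and 0.84 for age in intact cord (0.0044 over all), and it was 4.31 for injury in young mice (-0.0048 over all) and 3.68 for injury in aged mice (-0.04 over all). On the probes used, the arrays did not overlap between aged injured and young injured cords for 5 of 7 genes, where this held for 28.1% of all tested genes.

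**Figure D2:**
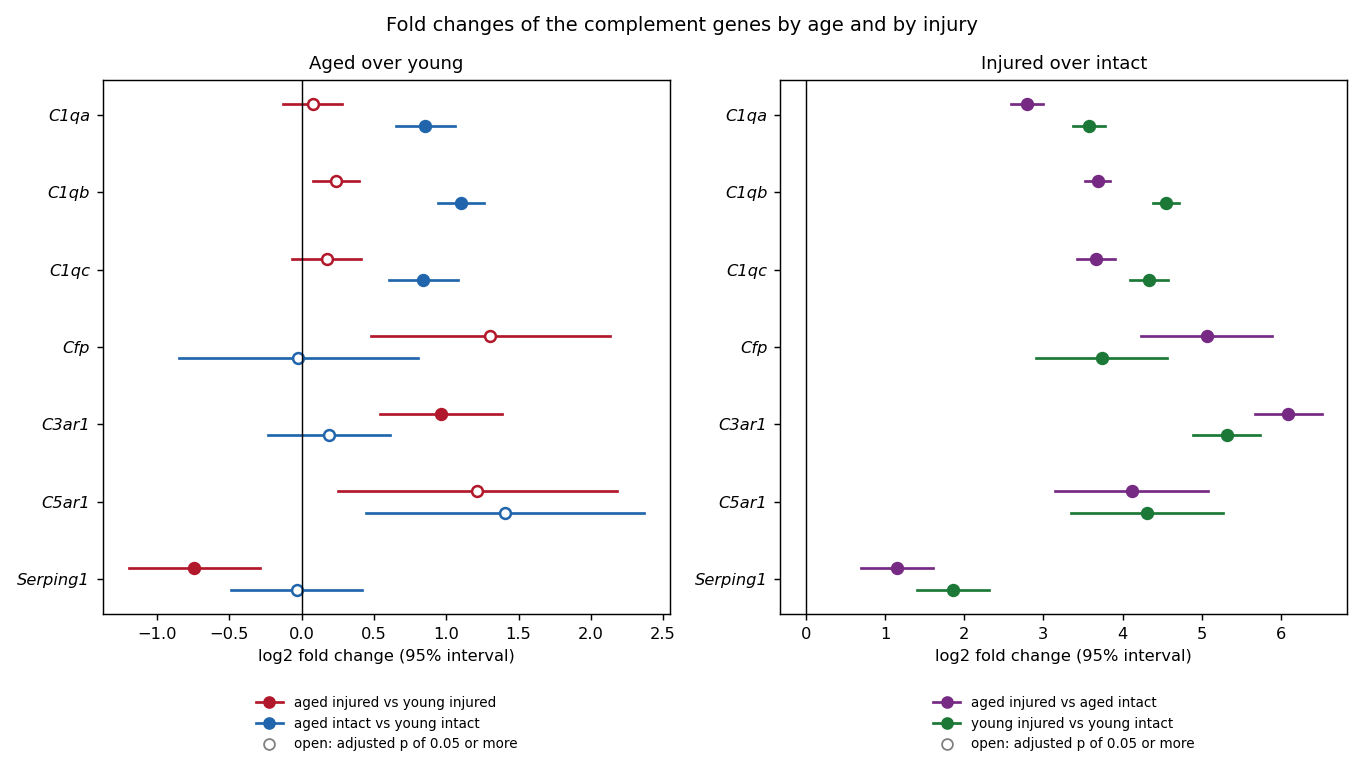
log2 fold change with its 95% interval (limma, 3 arrays per group) of the 7 complement genes, aged over young on the left and injured over intact on the right; filled points have an adjusted p under 0.05. The C1q genes are filled for age in intact cord and open in injured cord, C3ar1 and Serping1 are filled for age in injured cord, and all points on the right are filled and above 0.

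C1qa signals were 5169, 4623 and 5099 in aged injured cords and 4756, 4053 and 5372 in young injured cords, against 730.4, 710.4 and 703 in aged intact cords and 416, 399 and 371 in young intact cords. The arrays of the 2 injured groups overlapped, whereas each intact group stood apart from every other group. In intact cord C1qa was 1.81-fold higher in aged mice (log2 fold change 0.86 ± 0.09, SE, n = 3 per group, adjusted p = 0.00146). In injured cord the age difference was 0.08 ± 0.09, with a 95% interval of -0.13 to 0.28 (adjusted p = 0.570). C1qa rose 6.95-fold with injury in aged mice and 11.96-fold in young mice.

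C1qb, of the 3 C1q genes, had the widest age difference in intact cord on the log2 scale, with 357, 320 and 357 in aged intact cords against 165, 161 and 156 in young intact cords. After injury it reached 4789, 4273 and 4234 in aged mice and 3678, 3573 and 4022 in young mice. On this probe the 4 groups did not overlap. The intact cords of aged mice were 2.15-fold higher than those of young mice (1.10 ± 0.07 on the log2 scale, adjusted p = 5.75e-05), and the age difference in injured cord was 0.24 ± 0.07, which did not pass the test (adjusted p = 0.0635, interval 0.08 to 0.40). Leaving out aged injured replicate 2 brought it past the test (0.26, adjusted p = 0.0382). C1qb rose 12.9-fold with injury in aged mice and 23.4-fold in young mice.

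Both other C1qb probes were also higher in aged than in young intact cords, by 1.06 (adjusted p = 0.000527) and 0.76 (adjusted p = 0.0124) on the log2 scale. In injured cord they gave age differences of 0.19 and 0.14, with arrays that overlapped between the ages on both probes. The probe used and 1 of the others carry the suffix _x_at, which marks probe sets that may also match other transcripts.

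C1qc gave 3619, 2900 and 3253 in aged injured cords and 2916, 2468 and 3306 in young injured cords, against 254, 266.5 and 248 in aged intact cords and 144, 149 and 136 in young intact cords. As for C1qa, the injured groups overlapped and the intact groups did not. Aged intact cords were 1.79-fold higher than young intact cords (0.84 ± 0.11, adjusted p = 0.00399), and the age difference after injury was 0.17 ± 0.11 (interval -0.06 to 0.41, adjusted p = 0.282). The rise with injury was 12.7-fold in aged mice and 20.3-fold in young mice.

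The age difference of the C1q genes was then set against itself between injured and intact cord, as the log2 difference after injury minus that in intact cord. This was -0.86 ± 0.10 for C1qb (SE, adjusted p = 0.00959) and -0.78 ± 0.13 for C1qa (adjusted p = 0.0376), which were called lower, and -0.67 ± 0.15 for C1qc, which was not (adjusted p = 0.0926). Of all tested genes 0.304% were called lower in this comparison, and of the 7 complement genes these 2. The C1qa call was lost in 9 of 12 fits that left out 1 array (any intact array, aged injured replicate 3, and replicate 1 or 3 of the young injured group), with adjusted p between 0.0586 and 0.120, while C1qc passed without aged injured replicate 1 (adjusted p = 0.0318) or young injured replicate 2 (adjusted p = 0.0471).

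The difference depends on the scale. In linear signal the aged mean exceeded the young mean for C1qb by 675 ± 224 units in injured cord (SE, n = 3 per group) and by 184 ± 12.7 units in intact cord, for C1qc by 361 ± 319 and 113 ± 6.79 units, and for C1qa by 236.5 ± 418 and 319 ± 15.4 units. Thus the linear gap of C1qb and C1qc was no smaller after injury in its mean, while the log2 gap was, and the linear gaps were not tested against each other. On injured arrays at most 0.89% of probes were brighter than each C1q gene. Whether signals this high compress a log2 difference was not tested. The means after injury minus those before it were 4249 ± 172 units in aged mice and 4332 ± 381 units in young mice for C1qa, 4087 ± 179 and 3597 ± 136 units for C1qb, and 3001 ± 208 and 2754 ± 242 units for C1qc.

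Cfp, the gene of properdin, had signals of 583, 252 and 367 in aged injured cords and 189, 92.7 and 204 in young injured cords, and of 12, 13.4 and 9 in aged intact cords and 9, 10 and 16.8 in young intact cords. Every aged injured array was above every young injured array, and the intact arrays of both ages were below 50. The aged injured mean was 2.47-fold the young injured mean (1.30 ± 0.37 on the log2 scale), which did not pass the test (adjusted p = 0.0532). It passed without aged injured replicate 2 (1.60, adjusted p = 0.0163) and was 0.99 without the outlying aged injured replicate 1 (adjusted p = 0.131). With intact signals set to 50, Cfp rose at least 8.01-fold with injury in aged mice and at least 3.24-fold in young mice. A further Cfp probe was below 50 in every group.

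C3ar1, the receptor for C3a, gave 2064, 1325 and 1474 in aged injured cords against 880, 625 and 982 in young injured cords. All aged injured arrays lay above all young injured arrays. The level was 1.96-fold higher in aged mice (0.97 ± 0.19, SE, n = 3 per group, adjusted p = 0.0174), which ranked it 139 of 10511 genes by fold change. The call held without aged injured replicate 1 (0.78, adjusted p = 0.0227) and was lost without young injured replicate 2 (0.78, adjusted p = 0.0521).

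In intact cord C3ar1 was dim, at 24.9, 25 and 20.4 in aged mice and 22.6, 19.9 and 19.1 in young mice. These arrays overlapped and no fold is given. The gene rose at least 32.4-fold with injury in aged mice and at least 16.6-fold in young mice. The other C3ar1 probes gave higher signals in injured cords of aged mice as well, by 0.86 (adjusted p = 0.0307) and 1.01 (adjusted p = 0.0249). The first of these also passed the test between aged and young intact cords (1.13, adjusted p = 0.0316) with means of 29.5 and 13.6, both below 50. The age difference of C3ar1 after injury minus that in intact cord was 0.78 ± 0.27 and did not pass (adjusted p = 0.208).

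C5ar1, the receptor for C5a, gave low signals, with 236.5, 101 and 148 in aged injured cords and 64.9, 54.7 and 79.4 in young injured cords. Aged and young injured arrays did not overlap. The aged injured mean was 2.44-fold higher (1.21 ± 0.44 on the log2 scale), and this did not pass the test (adjusted p = 0.0955), but it passed without aged injured replicate 2 (1.51, adjusted p = 0.0375). Without aged injured replicate 1 it was 0.90 (adjusted p = 0.281).

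Intact cords gave C5ar1 signals of 7.1, 9.4 and 10.2 in aged mice and 3.7, 5.8 and 1.7 in young mice. All 6 arrays were far below 50, so the fitted difference of 1.41 (adjusted p = 0.247) has no fold beside it. C5ar1 rose at least 3.23-fold with injury in aged mice and at least 1.33-fold in young mice. On a further C5ar1 probe, which exceeded 50 in aged injured cords alone (mean 63.1), the age difference was 0.85 after injury (adjusted p = 0.612). The injured arrays of the 2 ages overlapped on that probe.

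Serping1, the C1 inhibitor, ran the other way with age after injury, with 1171, 697 and 815 in aged injured cords and 1730.3, 1175 and 1533 in young injured cords. The highest aged injured array was 1171.3 and the lowest young injured array 1174.9, so the groups were separate by a narrow margin. The young injured mean was 1.65-fold the aged injured mean (aged over young -0.74 ± 0.21 on the log2 scale, SE, n = 3 per group, adjusted p = 0.0475). This call was lost in 11 of 12 fits without 1 array, with adjusted p between 0.0515 and 0.121, and held only without aged injured replicate 1 (-0.95, adjusted p = 0.0103).

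In intact cord Serping1 was 407, 474 and 317 in aged mice and 407, 433 and 372 in young mice, and these arrays overlapped (-0.03 ± 0.21, interval -0.49 to 0.42). It rose 2.24-fold with injury in aged mice and 3.66-fold in young mice, and the difference between these rises was -0.71 ± 0.29 (adjusted p = 0.264). Markers of fibroblasts and meninges also rose with injury in 6 of 6 genes at both ages. Of all tested genes 35.6% were called higher with injury in aged and 33.9% in young mice. These markers had summed signals of 10566 to 14317 in aged injured and 11158 to 15087 in young injured cords. Limma called 0 of 6 between these groups, also at an unadjusted p under 0.05. Unlike Serping1, 3 of the 6 were called lower in aged than in young intact cords (median -0.58), beside 28 of all 10511 tested genes. In the difference of age differences 1 of the 6 was called higher, beside 14 of all tested genes. Summed astrocyte markers were 10131 to 15732 in aged injured and 18092 to 20369 in young injured cords. Of these 8 genes 3 were called lower, beside 4.58% of all tested genes. Without aged injured replicate 1 the lowest astrocyte sum of the aged injured group was 14954. In that fit 3 of 8 were again called lower, beside 389 of all 10511 tested genes. The part of these cell types in the Serping1 result was not tested.

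The 7 genes did not vary independently from array to array. Within the aged injured group replicate 1 was the highest array for 7 of 7 genes, and within the young injured group replicate 2 was the lowest for 7 of 7. Summed microglia and macrophage markers had the same extremes, at 33041, 29229 and 31827 in aged injured replicates 1, 2 and 3 and 28756, 24432 and 31021 in the young injured replicates. In intact cords no single array was highest or lowest for all 7 genes.

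C1q, C3ar1 and C5ar1 are known as genes of microglia and macrophages, and 13 markers of these cells were read beside them. Their summed signal was 29229 to 33041 in aged injured cords and 24432 to 31021 in young injured cords, and 5404 to 5751 in aged intact cords and 3147 to 3456 in young intact cords. Of the 13, 8 were called higher in aged than in young intact cords (median 0.69 on the log2 scale), where 0.542% of all tested genes were. In injured cord 3 were called higher in aged mice (Itgam, Cd68 and Adgre1, median 0.25, beside 4.41% of all tested genes). Without aged injured replicate 1 this was 1 of 13, beside 235 of all 10511 tested genes. With injury 12 were called higher at either age, beside 35.6% of all tested genes in aged and 33.9% in young mice. The age difference after injury minus that in intact cord was called lower for 4 of the 13, Aif1, Mpeg1, Ctss and Lyz2, beside 0.304% of all tested genes. The part of these markers in the complement results was not tested.

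Neutrophils also carry C5ar1 and store properdin. Of 6 markers listed for them 4 had a probe and 3 were tested (S100a8, S100a9 and Mmp8). The summed signal of the 4 was 955 to 3376 in aged injured and 865 to 1849 in young injured cords, and 97.1 to 1153 in aged intact and 385 to 601 in young intact cords, so the ages overlapped in both conditions. Between aged and young injured cords limma called 0 of 3, with 1 at an unadjusted p under 0.05 (Mmp8, 1.77, adjusted p = 0.0681). With injury it called 2 higher in aged mice and 1 in young mice, beside 35.6% and 33.9% of all tested genes. Cxcr2 was below 50 in every group and Mmp8 in both intact groups. The part of neutrophils in the C5ar1 and Cfp results was not tested.

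**Figure D3:**
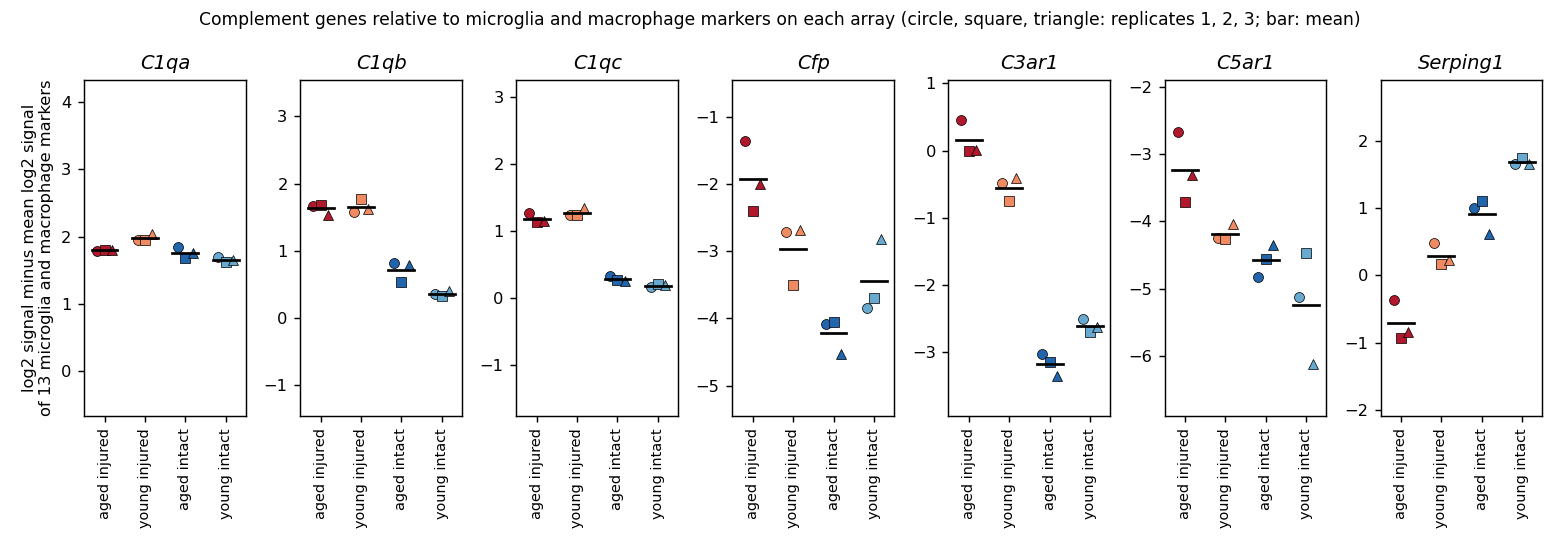
log2 signal of each of the 7 complement genes minus the mean log2 signal of 13 microglia and macrophage markers, on each of the 12 arrays, by group, with bars for group means; each panel has its own range of equal height. C1qa lies between 1.63 and 2.04 on all arrays and lower on aged injured than on young injured arrays, C3ar1 is highest in aged injured cords, and Serping1 is lowest in aged injured and highest in young intact cords.

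Relative to the mean log2 signal of these 13 markers on the same array, C1qa was lower on every aged injured array (1.78 to 1.80) than on every young injured array (1.94 to 2.04). It averaged 1.80 ± 0.01 in aged injured and 1.98 ± 0.05 in young injured cords, and 1.76 ± 0.08 in aged intact and 1.66 ± 0.03 in young intact cords with overlap (SD, n = 3 each). Such a value depends on the probes, so only its change between groups is read. C1qb stood at 0.71 ± 0.16 in aged intact and 0.36 ± 0.04 in young intact cords without overlap, whereas in injured cords it was 1.63 ± 0.08 in aged and 1.65 ± 0.10 in young mice with overlap. C1qc was 1.18 ± 0.07 in aged injured and 1.27 ± 0.06 in young injured cords, and 0.28 ± 0.04 and 0.19 ± 0.02 in aged intact and young intact cords.

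For properdin, the receptors and the inhibitor the aged injured and young injured arrays did not overlap relative to the markers either. C3ar1 ranged from -0.0015 to 0.46 on aged injured arrays and from -0.75 to -0.41 on young injured arrays. C5ar1 ranged from -3.72 to -2.67 on aged injured and from -4.26 to -4.04 on young injured arrays, and Cfp from -2.40 to -1.37 on aged injured and from -3.50 to -2.68 on young injured arrays. These receptors and Cfp were thus higher relative to the mean of the markers on aged injured arrays. The markers themselves differed, and 10 of 13 were above 0 between aged and young injured cords. Itgam, Cd68 and Adgre1 were at 0.84, 0.76 and 0.67 on the log2 scale, near the 0.97 of C3ar1. P2ry12, Lyz2 and Csf1r were at -0.23, -0.11 and -0.09. Serping1 averaged -0.71 ± 0.31 in aged injured and 0.29 ± 0.17 in young injured cords, and 0.90 ± 0.26 in aged intact and 1.69 ± 0.05 in young intact cords, so that it was lower relative to these markers in aged mice and after injury.

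Beyond these genes, 45 other genes of the complement system were listed by role. Of these, 37 had a probe of their own and 17 passed the signal cutoff of 50. No gene of the alternative pathway (Cfb measured) and none of the terminal pathway (Hc, which encodes C5, C6, C8a, C8b, C8g and C9 measured) reached 50 in any group. Between aged and young injured cords 3 of the 17 were called higher and 3 lower, beside 4.41% and 4.58% of all tested genes. Their median log2 fold change was -0.29, beside -0.04 over all tested genes. In a fit of the arrays of these groups alone limma called 0 of 10511 genes (1974 at an unadjusted p under 0.05), so that none of these calls held there. Aged intact cords had 2 of 17 called higher than young intact cords, beside 0.542% of all tested genes. Aged injured against aged intact cords had 11 called higher and 3 lower (35.6% and 39.9% of all tested genes), and young injured against young intact cords 11 higher and 2 lower (33.9% and 34.1% of all). In the difference of age differences limma called 0 of 17, with 8 at an unadjusted p under 0.05, as had 1708 of the 10511 tested genes (16.2%).

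Of the 45 other genes, those for recognition and proteases of the classical and lectin pathways were dim, unlike the C1q genes. C1ra and C1s1, the proteases held in check by the C1 inhibitor, and C2, the next protease of the classical pathway, rose with injury at both ages, C2 to 81.3, 49.5 and 45.5 in aged mice and 103, 82 and 99.6 in young mice. The aged injured and young injured arrays of C2 did not overlap, but its difference of -0.73 did not pass (adjusted p = 0.115). It passed without aged injured replicate 1 (-0.99, adjusted p = 0.0492). Colec11, a collectin of the lectin pathway, was 26.8, 25.9 and 21.7 in aged injured cords and 60.4, 50 and 62.4 in young injured cords (-1.22, adjusted p = 0.0138, at least 1.15-fold lower in aged mice), a call lost with the mean of all its probes (-1.12, adjusted p = 0.247). C1s1 was called higher in aged than in young intact cords (1.11, adjusted p = 0.0409) with both means below 50, and lost that call in 14 of 21 alternatives, 9 of them fits without 1 array (adjusted p 0.0549 to 0.172). The rise of C1ra in aged mice was lost without aged injured replicate 1 or aged intact replicate 1 or 3 (adjusted p of at most 0.0610). Masp1 and Fcna were called higher with injury in aged mice (0.93, adjusted p = 0.000574, and 1.19, adjusted p = 0.00105) and not in young mice (0.18 and 0.48). The difference of age differences did not pass for either (adjusted p = 0.184 and 0.334). Masp1 met the cutoff of 50 through aged injured cords alone (mean 52.1), with intact means of 26.9 in aged and 40.8 in young mice. Colec11 was called higher with injury in young mice (0.89, adjusted p = 0.00420) and not in aged mice (0.05). Its difference of age differences did not pass (adjusted p = 0.228). It met the cutoff of 50 through young injured cords alone (mean 57.6), the group in which it was high in both of its calls. The calls of Masp1 and Colec11 were lost with the mean of all probes (adjusted p = 0.250 and 0.390). C1ra and C1s1 have near-identical copies, C1rb and C1s2, so their values are uncertain.

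Among the genes listed as receptors, Cr1l included, 3 of 6 were called higher in aged than in young injured cords, beside 4.41% of all tested genes. Vsig4, a macrophage receptor for C3 fragments, gave 127, 65.7 and 83.2 in aged injured cords against 16.5, 24.8 and 24.9 in young injured cords (2.03 ± 0.33, adjusted p = 0.00993, at least 1.84-fold). In young mice it did not pass 50 in either condition. Vsig4 met the cutoff of 50 through aged injured cords alone (mean 92), the group in which it was called higher. Its place in the count is thus not independent of the cutoff. Cd93, a membrane protein of myeloid and endothelial cells once named a C1q receptor, gave 1433, 746 and 911 against 516, 305 and 513 (1.20 ± 0.25, adjusted p = 0.0195), and lost its call without young injured replicate 2 (0.95, adjusted p = 0.0583) and with the mean of all its probes (1.07, adjusted p = 0.0780).

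Itgam, the alpha chain of the integrin that binds cleaved C3 and also 1 of the 13 markers above, gave 402, 275 and 307 in aged injured cords against 193, 147 and 207 in young injured cords (0.84 ± 0.20, adjusted p = 0.0312). Its call was lost in 5 of the fits without 1 array (any young injured array, or aged injured replicate 1 or 3), with adjusted p between 0.0516 and 0.101. Its partner Itgb2 did not pass in injured cord (0.65, adjusted p = 0.0509) and was called higher in aged than in young intact cords, at 54, 81.6 and 69.7 against 29.5, 36.9 and 33 (1.03 ± 0.18, adjusted p = 0.0268, at least 1.37-fold), a call lost in 9 of 22 alternatives, 7 of them fits without 1 array (adjusted p 0.0514 to 0.129). Cr1l was listed with the receptors, although in mice it encodes the membrane regulator Crry. It rose 2.55-fold with injury in aged mice and 2.34-fold in young mice. Its arrays overlapped between ages, and its age difference in injured cord did not pass (0.25, adjusted p = 0.195). Itgax rose at least 2.97-fold with injury in aged mice and at least 1.81-fold in young mice, and did not pass between ages. With injury all 6 genes listed as receptors, Cr1l included, were called higher in aged mice and 5, all but Vsig4, in young mice. Of all tested genes 35.6% and 33.9% were.

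Of the genes listed as regulators, which leave out Cr1l, 2 of 5 were called lower in aged than in young injured cords, beside 4.58% of all tested genes. Cd55, which speeds the decay of C3-cleaving enzymes, gave 42.1, 47.1 and 35.2 in aged injured cords against 88.8, 164 and 69.1 in young injured cords (-1.28 ± 0.28, adjusted p = 0.0242, at least 2.15-fold lower), a call lost without young injured replicate 1 or 2 or aged injured replicate 3 (adjusted p 0.0544 to 0.0656). Clu, an extracellular inhibitor of the terminal complex, gave 2544, 3707 and 3553 against 4486, 4024 and 4885 (-0.47 ± 0.12, adjusted p = 0.0419), and lost its call in 15 of 22 alternatives, 10 of them fits without 1 array (adjusted p 0.0556 to 0.116). Cd59a, an inhibitor of the membrane attack complex, and Susd4 fell with injury at both ages, Susd4 to 35.7, 101 and 76.8 in aged mice, against 297 to 322 in aged intact cords, and to 92.5, 120.5 and 115 in young mice, against 310.4 to 337 in young intact cords. The fall of Cd59a in young mice was lost without young injured replicate 1 or young intact replicate 2 (adjusted p of at most 0.0730). Vtn and Clu were called higher with injury in young mice (0.81, adjusted p = 0.00476, and 0.31, adjusted p = 0.0452). The rise of Clu was lost in 14 of 22 alternatives. In aged mice neither was called (0.26 and -0.19), and Cd55 was called lower with injury (-1.04, adjusted p = 0.00629). Between aged and young injured cords Vtn did not pass (-0.62, adjusted p = 0.0759). It passed there without aged injured replicate 1 (-0.82, adjusted p = 0.0218). Aged injured replicate 1, the array with the lowest neuronal markers, was also the lowest for Susd4, whose fall with injury in aged mice was -2.26 on the log2 scale with it and -1.82 without it (adjusted p = 2.14e-07). Cd55 and Cd59a have related copies in the mouse, Cd55b and Cd59b. Whether their probes also match these copies was not tested, so their values are uncertain.

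**Figure D4:**
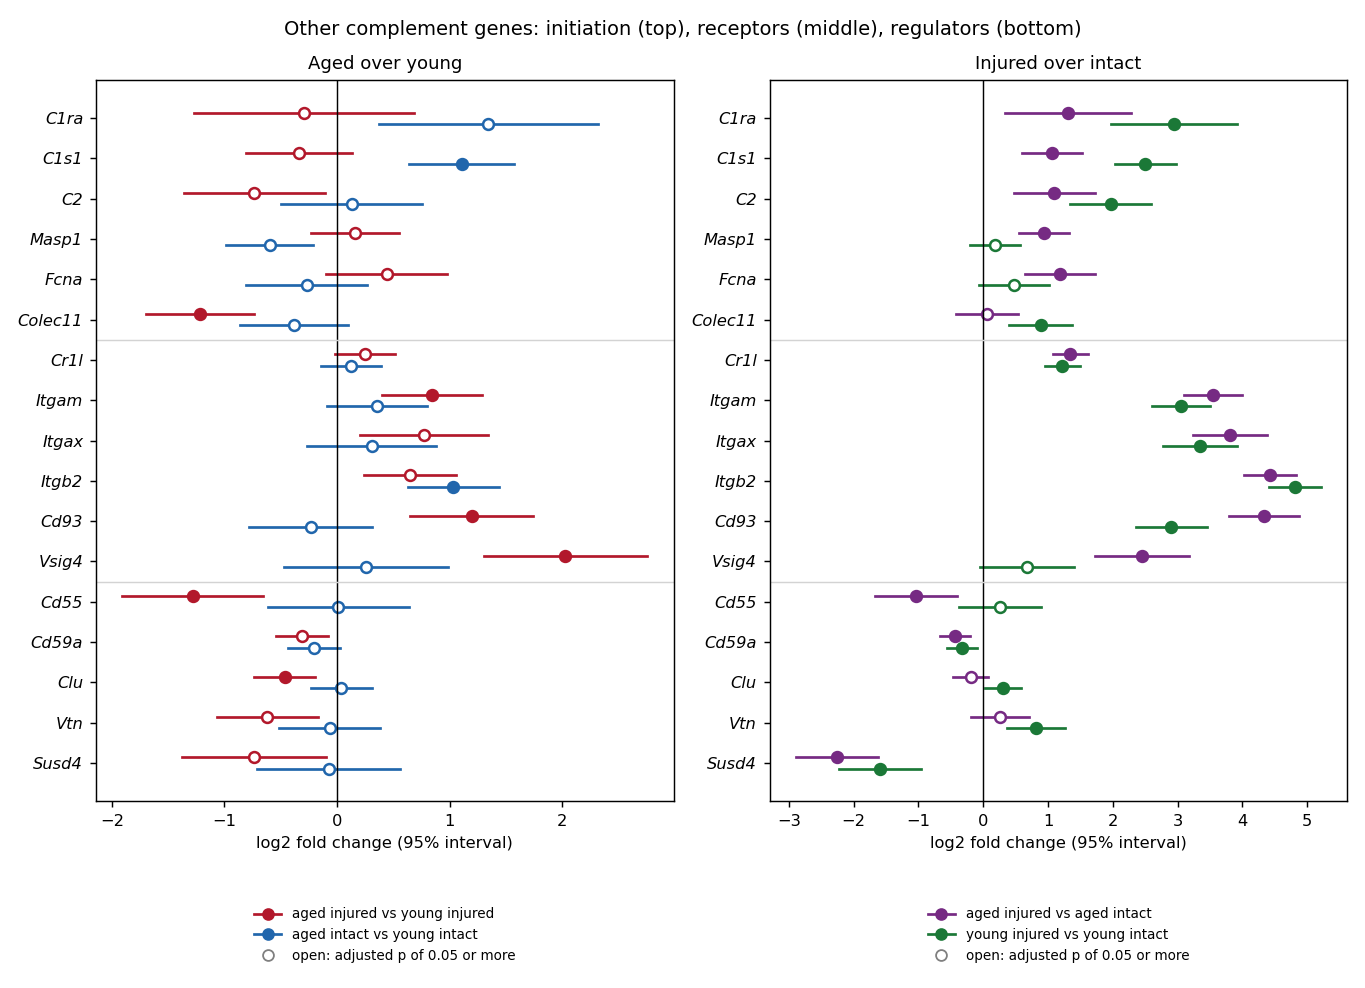
log2 fold change with its 95% interval (limma, 3 arrays per group) of 17 other complement genes, aged over young on the left and injured over intact on the right, with genes of initiation at the top, receptors in the middle and regulators at the bottom; filled points have an adjusted p under 0.05. In injured cord the filled receptors (Itgam, Cd93, Vsig4) lie above 0 and the filled regulators (Cd55, Clu) below 0. Cr1l, which encodes a regulator, is drawn among the receptors.

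Which genes followed each complement gene was read from the root mean square of the difference in log2 signal over the 12 arrays, after each gene was set to its own mean. Nearest to C1qa were Abca1 (0.12), Lyz2 (0.13) and Aif1 (0.14), beside a median of 1.64 over 10510 genes. C1qb was nearest to Cd52, C1qc and Irf8, and C1qc to Cd52 (0.11), Irf8 (0.12) and C1qb (0.14), so each of these C1q genes had the other among its 3 nearest genes. C3ar1 was nearest to Cd84 (0.28), Cd68 (0.33) and Msr1 (0.34), C5ar1 to Vav1, Blnk and Capg, and Cfp to Plin2, Tmem106a and Adam8. Serping1 was nearest to Prrx2 (0.14), Marveld1 (0.15) and Gpc6 (0.16), and the other 6 complement genes stood at rank 6315 or lower in its order. These distances rest on 12 arrays that share the same 4 groups and are a description.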

How the data were processed

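Spinal cord RNA of 12 mice was hybridised to Affymetrix whole-genome mouse arrays, 1 array per mouse and 3 per group. The authors deposited MAS 5.0 signals, which are linear intensity values scaled per array, for 45101 probes; the processing notes name MAS5, and a version is not given in the sources used here. Platform annotation paired 34958 probes with 1 gene, 932 with several and 9211 with none. The probe of highest mean signal stood for each of 18194 genes. Genes whose signal averaged over 50 in any group (10511) were tested on log2 signal with limma 3.58.1 (R 4.3.3; 1 mean per group, moderated spread with trend), and p-values were adjusted by Benjamini-Hochberg over all of them. Where a group mean was below 50, a fold is a lower bound with that mean set to 50. The script was tested on simulated data.

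All 9 complement genes are named, with other complement genes and cell type markers taken from lists by role, those called in a comparison described or given by their values, and the 3 genes nearest to each. These genes and lists were chosen with earlier results of these data known. The 3 arrays per group limit the precision. The p-values set each group difference against a moderated spread between mice that is shared by all 4 groups. Aged injured arrays were further from each other (mean distance 58.6) than the arrays of the other groups (26.8 to 31.4). Replicate numbers were not used as pairs in the fit reported, since the study's methods state no pairing. Promoters are RefSeq sequences of GRCm38.p6. Alternatives covered normalization, pseudocount, filters, spread models, array weights, other probes and each array left out; an alternative that centres each array on its median was chosen after seeing the data. Figures were drawn with matplotlib 3.10.9.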

Additional observations from a re-analysis of the deposited data

Results flagged for a closer look

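The age difference of C1qa and of C1qb was not the same in injured and in intact cord by a test of the difference itself (limma interaction, adjusted p over all genes tested). The log2 difference of aged over young mice after injury minus that in intact cord was -0.78 for C1qa (adjusted p = 0.0376) and -0.86 for C1qb (adjusted p = 0.00959). For C1qa the age difference was 0.08 in injured and 0.86 in intact cord, and for C1qb 0.24 and 1.10, with 3 of 3 aged intact arrays above every young intact array for both genes. The C1qa call was lost in 13 of 21 alternatives, 9 of them fits without 1 array (adjusted p 0.0586 to 0.120) and the others without a filter on signal, without a trend in the spread, with the replicate block and with arrays centred on their median (adjusted p 0.0557 to 0.0636), while the C1qb call was lost in 1 of 23, on another probe (adjusted p = 0.128). Both differences are on the log2 scale: in linear signal the aged minus young means of C1qb were 675 units in injured and 184 units in intact cord, and those of C1qa 236.5 and 319 units, and these were not tested against each other. On injured arrays 0.15% to 0.28% of probes were brighter than C1qa and 0.26% to 0.49% brighter than C1qb. On intact arrays these shares were 4.59% to 9.08% and 9.44% to 18.8%. Whether signals this high compress a log2 age difference was not tested.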

How the results depend on the processing

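Over the 788 repeats of the tests of the 7 genes under other settings, 722 kept direction and side of the threshold, 32 lost a call, 20 gained one and 14 changed sign, and the cause of these changes was not tested. All 7 genes stayed called for injury at both ages, and the 3 C1q genes for age in intact cord, under every limma setting run; by the study's cutoffs (ratio of means above 2, a mean above 50) 1 gene was called for age in intact cord. Between aged and young injured cords (C3ar1 higher, Serping1 lower) those cutoffs called C5ar1 and Cfp, both higher, and neither of these 2, centring each array on its median called C3ar1 and Cfp higher and lost Serping1 (adjusted p = 0.0575), and 4 genes were called with log2(signal + 16), 1 without a filter on signal, 1 without a trend in the spread, 1 with the mean of all probes, 5 with array quality weights, whose estimation stopped before its convergence tolerance (1889 genes higher and 2308 lower in all, beside 464 and 481), 0 with only the arrays of these groups (limma then called 0 of 10511 genes, with 1974 genes and 5 of the 7 at an unadjusted p under 0.05), and 0 to 4 with 1 array left out. For the difference of age differences (2 called) 1 was called without a filter, 1 without a trend, 1 with arrays centred on their median, 6 with array weights, and 1 to 3 with 1 array left out. Same-numbered samples deviated together in no comparison for all 3 pairs. Between aged and young injured cords their r was 0.60, 0.67 and 0.01, and differently numbered pairs ranged from -0.63 to 0.32. Deviations from means of 3 arrays cannot tell whether replicate numbers mark samples handled together. With the replicate block 3 genes were called between aged and young injured cords, Cfp being gained. In the difference of age differences 1 gene was then called. The changes of sign were all in values that did not pass the test in the fit reported. Aged against young injured cords gave -0.028 for C1qa (-0.028 to 0.18 with 1 array left out). In the difference of age differences C3ar1 was -0.27 on another probe, and C5ar1 was 0.71 with log2(signal + 16), 1.00 with the mean of all probes, 2.18 on another probe and -0.60 to 0.29 with 1 array left out (0.29 and 0.10 where the sign changed). For age in intact cord C5ar1 was -1.34 on another probe, Cfp 0.055 with array weights, 0.17 with the mean of all probes and -0.20 to 0.25 with 1 array left out (0.25 and 0.14), and Serping1 -0.17 to 0.12 with 1 array left out (0.018 and 0.12). The number of arrays, and signals below 50 for C3ar1, C5ar1 and Cfp in intact cord, limit these comparisons.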
